A study of Mus musculus with 2 samples.

Results

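Loci tiled by at least 3 overlapping guides were examined in mouse macrophages carrying a pooled CRISPR knockout library. In such a screen each cell carries a single guide RNA (sgRNA), whose 20 bases direct Cas9 to a matching site, and the number of reads of a guide in genomic DNA stands for how many cells carry it. The rule for members used the guide sequences alone, though it was set with earlier results of these data known. It linked 2 guides where at least 14 bases at the end of one equalled the start of the other. The match could be on the same strand or after reverse complement of one. All guides connected through such links formed a group. This gave 323 guides in 92 groups of 3 or more, 0.406% of the 79633 guides in the library. Another 1230 guides formed 615 groups of 2, and 78080 guides had no link.

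The cells were R26-Cas9-KI bone marrow derived macrophages immortalised with J2 retrovirus. All of them expressed the Tet3G transactivator, carried a doxycycline-inducible caspase-cleavage fragment of gasdermin D (GSDMD) tagged with tagBFP, and had been transduced with the Brie lentiviral sgRNA library, selectable with blasticidin. The input population was left without doxycycline, while the survivors received 0.5 μg/ml of doxycycline over 16 h before a sort for BFP+ PI- cells, which hold the induced fragment and exclude propidium iodide. Each population was given as 1 library named as combined, so differences between the 2 were checked against no replicate and carry no p-value. Reads totalled 86266754 in the input and 16269091 in the survivors. By counting error alone, a guide at 0 reads could stand at up to 0.0348 reads per 1000000 (RPM) in the input or 0.184 in the survivors (3 counts). The tables count guides, not transcripts, so the labelled cell type could not be set against marker genes.

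GSDMD executes pyroptosis, an inflammatory lytic death: its N-terminal fragment, freed by caspases, oligomerises into pores in the plasma membrane. Cas9 cuts DNA within the matched site when an NGG motif, the PAM, follows it, and repair of the break can disrupt the gene. A guide with matches at several genomic copies can bring several breaks to a cell, and guides to genes needed for growth become rare before any selection. Overlapping guides can arise where a short gene offers few target sites, or where guides designed for related genes fall on the same conserved stretch.

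Every group could be laid out along a single stretch of DNA without contradiction between its links. The stretches spanned 21 to 32 bases (median 26), and 8 to 19 of these bases (median 14) were common to all guides of the group. The positions at which Cas9 would cut, after base 17 of each guide, lay within 1 to 24 bases (median 12) of each other in a group. There were 62 groups of 3 guides, 23 of 4, 3 of 5, 2 of 6, 1 of 7 and 1 of 11. Guides of both strands occurred in 57 groups. In 56 groups (175 guides) all members read as 1 sequence, with the same base at each shared position. In the other 36 groups (148 guides) members carried different bases at 1 to 4 positions, so these groups join guides to near-identical sequences rather than to 1 site.

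The 2 largest groups are of this mixed kind. They are shown with all guides in order along the stretch, 5′ to 3′, with the strand in parentheses and capitals for the bases that all members share (as the reverse complement on the minus strand). The group of 11 guides is called the Defa41 group, since 2 of its guides matched that gene.
Defa41 group guide 1 (+): ccttgtcctGCTGGCCTTCC
Defa41 group guide 2 (-): ctGGAAGGCCAGCagaacga
Defa41 group guide 3 (-): ctGGAAGGCCAGCaggaaaa
Defa41 group guide 4 (-): ctGGAAGGCCAGCaggatga
Defa41 group guide 5 (-): cctGGAAGGCCAGCagaacg
Defa41 group guide 6 (-): cctGGAAGGCCAGCaggaca
Defa41 group guide 7 (-): cctGGAAGGCCAGCaggacg
Defa41 group guide 8 (-): cctGGAAGGCCAGCaggatg
Defa41 group guide 9 (+): cctGCTGGCCTTCCaggtcc
Defa41 group guide 10 (-): ctggacctGGAAGGCCAGCa
Defa41 group guide 11 (-): cctggacctGGAAGGCCAGC
7-guide group guide 1 (-): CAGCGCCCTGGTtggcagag
7-guide group guide 2 (-): CAGCGCCCTGGTttgcagag
7-guide group guide 3 (+): tgcaaACCAGGGCGCTGgcg
7-guide group guide 4 (+): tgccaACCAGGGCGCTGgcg
7-guide group guide 5 (+): aaACCAGGGCGCTGgcgagg
7-guide group guide 6 (+): caACCAGGGCGCTGgcaagg
7-guide group guide 7 (-): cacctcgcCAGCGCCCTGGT

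Genomic positions were sought in RefSeq promoter windows of GRCm38.p6, which run from 250 bases before to 50 bases after each annotated start, and only guides followed by NGG were counted. Positions elsewhere in genes were not analysed here. Of the 323 members, 7 guides in 4 groups matched. These are shown with the same use of capitals.
H2b group guide 1 (+): ccttcttggaGCCCTTCTTC
H2b group guide 2 (+): cttcttggaGCCCTTCTTCg
H2b group guide 3 (+): ttggaGCCCTTCTTCggggc
H2b group guide 4 (+): GCCCTTCTTCggggcaggag
Krtap6-1 group guide 1 (+): ggctactacGGAAACTACTA
Krtap6-1 group guide 2 (+): tactacGGAAACTACTAtgg
Krtap6-1 group guide 3 (+): GGAAACTACTAtggcggcag
Y chromosome group guide 1 (+): taggaggaAGCCTTCTTCCC
Y chromosome group guide 2 (+): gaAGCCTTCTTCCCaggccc
Y chromosome group guide 3 (+): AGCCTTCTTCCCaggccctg
In the Defa41 group, guide 1 matched chr8:21201630-21201649 on the plus strand and guide 6 matched chr8:21201633-21201652 on the minus strand. Both lie at the start of Defa41, an alpha-defensin gene of the antimicrobial peptide family made by Paneth cells, and their offset of 3 bases equals that in the layout. In the H2b group, guides 1, 2 and 3 each matched at 2 places. Guide 1 lay at chr13:21810120-21810139 within the interval of H2bc23 and at chr13:23574139-23574158 within that of H2bc7, both genes for histone H2B, a core protein of the nucleosome. These sites were seen because they also lie in the windows of the neighbouring histone genes H2ac23 and H2ac7. Guide 1 of the Krtap6-1 group matched chr16:89031724-89031743 in Krtap6-1, a keratin-associated protein gene of the hair fibre. Guide 1 of the Y chromosome group matched 93 positions on chromosome Y, each within a different predicted protein-coding gene. Of the 9 gene lists kept for this search, histones, defensins and keratin-associated proteins each had 1 group matched in these windows. The lists of Ragulator-Rag-mTORC1, pyroptosis, ribosomal, respiratory chain, chemoreceptor and essential genes had none. As 7 of the 323 members matched, these counts do not tell how many tiled groups belong to each list.

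The neighbours showed the PAM of many guides. Where a linked guide ran at least 3 bases past the end of another, the bases that follow the shorter stretch could be read from it, and the rule for members did not use them. For 187 such views in the tiled groups, bases 2 and 3 after the guide were GG in 138, or 73.8% (95% exact binomial interval 66.9 to 79.9%). Within the 20 bases of the tiled guides themselves GG made up 7.90% of dinucleotides, and within all guides 5.50%. In groups that read as 1 sequence, GG followed in 81 of 85 views, or 95.3% (88.4 to 98.7%). In groups with different bases at some position it followed in 57 of 102, or 55.9% (45.7 to 65.7%). Of the 49 views without GG, 42 had a single G in these 2 places. In groups of 2 guides GG followed in 213 of 343 views, or 62.1% (56.7 to 67.3%). A view is not an independent draw, since a guide can be seen from several neighbours.

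Examples show what was read, with the guide in lower case and the 3 bases that a neighbour places after it in capitals. Those of the H2b, Krtap6-1 and Y chromosome groups end in GG, and the Defa41 group holds a guide that has GG after it in one neighbour and GA in another.
H2b group guide 1: ccttcttggagcccttcttcGGG
H2b group guide 3: ttggagcccttcttcggggcAGG
Krtap6-1 group guide 2: tactacggaaactactatggCGG
Y chromosome group guide 1: taggaggaagccttcttcccAGG
Defa41 group guide 11, from guide 6: cctggacctggaaggccagcAGG
Defa41 group guide 11, from guide 5: cctggacctggaaggccagcAGA

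Tiled guides were scarce in the uninduced input. No library from before transduction was given, so their abundance in the guide pool itself was not tested. Input reads of the 323 members ranged from 0 to 4189 with a median of 433 (quartiles 77.5 and 959). Guides in groups of 2 had a median of 718 (307 and 1256) and guides in no link a median of 944 (513 and 1498), with highest values of 4531 and 9761. The ranges overlap almost entirely, and the classes differ at both the high and the low end. At 1000 or more input reads were 23.2% of members, 34.7% of guides in groups of 2 and 46.9% of unlinked guides. Under 200 input reads were 112 members, or 34.7% (95% exact binomial interval 29.5 to 40.1%), where 9.89% of all guides were. The share was 18.4% (16.3 to 20.7%) in groups of 2 and 9.66% (9.45 to 9.87%) in guides with no link, so that tiled guides stood at 3.59 times and groups of 2 at 1.90 times the unlinked share. No input reads at all were found for 25 members, or 7.74%, where 1.6% of all guides had none. Together the members, 0.406% of the guides, accounted for 0.233% of input reads, and for 0.252% of reads from survivors. These intervals treat guides as independent draws, which guides of a group are not. Counting each group once by the median of its guides, 24 of 92 groups lay under 200 reads, or 26.1%. Of the 615 groups of 2, whose median is the mean of both guides, 74 did, or 12%. The 2 measures are thus not fully alike.

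Shares under 200 reads were higher in larger and more densely linked groups, with overlapping intervals for most steps. Among guides in groups of 3, 28.5% (22.1 to 35.6%) had under 200 input reads. It was 40.2% (30.1 to 51.0%) in groups of 4 and 48.9% (33.7 to 64.2%) in the 45 guides of groups of 5 or more. Those 45 guides lie in 7 groups, with a mean GC content of 63.4%, against 54.1% in groups of 3 and 50.7% in groups of 4. Another library guide differing by at most 2 bases was found for 68.9% of them, against 39.2% and 44.6%. Group size was not separated from these traits. Members with a single link stood at 21.3% (14 to 30.2%), those with 2 links at 40.7% (33.3 to 48.4%) and those with 3 or more at 44.2% (29.1 to 60.1%). Requiring a longer overlap gave smaller, nested sets with higher shares: 29.9% of 461 guides at 13 bases, 38.5% of 244 at 15, 44.3% of 122 at 17 and 50.8% of 61 at 18. At the edge of the rule, the 79 guides tiled at 14 bases but no longer at 15 had a median of 542 input reads with 22.8% under 200. The 138 guides tiled at 13 bases but not at 14 had a median of 710.5 with 18.8% under 200.

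Groups that read as 1 sequence and groups with differing bases were both low. The former had a median of 351 input reads with 37.1% (30.0 to 44.8%) under 200, and the latter 517 reads with 31.8% (24.4 to 39.9%). A guide elsewhere in the library that differed by at most 2 bases was found for 44.9% of members, 18.3% of guides in groups of 2 and 3.33% of unlinked guides. Members with such a near-identical guide had 40.7% (32.6 to 49.1%) under 200 reads and members without one 29.8% (23.2 to 37.1%). Among unlinked guides the shares were 13.7% (12.4 to 15.1%) and 9.52% (9.31 to 9.73%).

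GC-rich members were the scarcest. Of the 58 members with at least 70% G and C, which fall in 22 groups, 39 had under 200 input reads, or 67.2% (53.7 to 79.0%), and their median was 54 reads. Unlinked guides of the same GC content ran the other way, with a median of 1147 reads and 6.18% (5.45 to 6.97%) under 200, and such guides in groups of 2 had a median of 881 and 17.5% (9.05 to 29.1%). At 45% GC or less 31.8% (23.1 to 41.5%) of members were under 200 reads against 12% of unlinked guides. At 50 to 55% GC it was 19.1% (11.5 to 28.8%) against 8.82%, and at 60 to 65% GC 31.9% (21.2 to 44.2%) against 7.33%. The tiled share was thus above the unlinked one in all 4 GC ranges. Without the 11 groups whose mean GC was at least 70% (43 guides), 29.3% of the remaining members were under 200 reads. Only 2 members carried a motif of the cloning enzyme sites or a start linked to it, and 34.3% of the other 321 were under 200 reads.

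Some tiled loci were low in every guide. In 15 of the 92 groups every guide had under 200 input reads, or 16.3% of groups (95% exact binomial interval 9.42 to 25.5%), in 42 none had, and 35 groups were mixed. Both guides were under 200 in 61 of 615 groups of 2, or 9.92% (7.67 to 12.6%). Of the 15 low groups 12 read as 1 sequence, 6 had a mean GC of at least 70%, and their mean GC ran from 35% to 80%. Their 52 guides had at most 175 input reads, and 8 of them had survivor reads, the highest 75. Of the 6 groups with a median of 0 input reads, the first 3 in alphabetical order are shown with a group of 6 GC-rich guides that was chosen after its values were seen. Groups not matched to a gene in the promoter windows are called loci with a letter, and their genes were not identified.
Locus B guide 1 (-): GCGCGGAGCCTTGccgccgg
Locus B guide 2 (-): cttGCGCGGAGCCTTGccgc
Locus B guide 3 (+): CAAGGCTCCGCGCaagcagc
Locus D guide 1 (+): cgACACCGGTATCTCCTCCA
Locus D guide 2 (-): TGGAGGAGATACCGGTGTcg
Locus D guide 3 (-): ctTGGAGGAGATACCGGTGT
Locus E guide 1 (+): caACAGTAAGGGACAGATAC
Locus E guide 2 (+): aACAGTAAGGGACAGATACt
Locus E guide 3 (+): ACAGTAAGGGACAGATACtg
Locus F guide 1 (+): ccggatctcgcGCAGCGCCA
Locus F guide 2 (-): ccgTGGCGCTGCgcgagatc
Locus F guide 3 (+): ctcgcGCAGCGCCAcggtgc
Locus F guide 4 (+): GCAGCGCCAcggtgccggga
Locus F guide 5 (+): GCAGCGCCAcggtgccgggc
Locus F guide 6 (-): gcccggcaccgTGGCGCTGC
All 3 guides of locus B and all 3 of locus D had 0 input reads and 0 survivor reads. In locus E guides 1 and 2 had 0 reads in both libraries, and guide 3, shifted by a single base from guide 2, had 60 input reads and 1 survivor read. Locus F had 8, 9, 0, 0, 1 and 101 input reads in the order shown and no survivor reads. The H2b group was similarly low: guides 1 and 2 had 0 input reads, guide 3 had 1, and guide 4, which was not matched to either gene in the windows, had 33 input reads and 16 survivor reads.

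The 2 groups with the highest median input reads both read as 1 sequence.
Locus H guide 1 (+): cccattcGCCCGTCCCGGCA
Locus H guide 2 (-): cgTGCCGGGACGGGCgaatg
Locus H guide 3 (+): GCCCGTCCCGGCAcggagca
Locus J guide 1 (+): gcctcctccaCAGCTCTGGG
Locus J guide 2 (+): tccaCAGCTCTGGGaggaga
Locus J guide 3 (-): tccttctcctCCCAGAGCTG
Locus H, with a mean GC content of 76.7%, had 2854, 569 and 2287 input reads in the order shown. Its GC content equals that of locus B, in which no guide was read. Locus J had 1771, 2686 and 665 input reads. Guide 1 of the Y chromosome group, with 93 matched positions, had 232 input reads and its neighbours 281 and 297. Whether these cells carry chromosome Y was not tested. Guide 1 of the Krtap6-1 group, with 1 matched position, had 261, and its neighbours had 542 and 354. Counts of matches elsewhere in the genome were not analysed here.

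Guides of a group resembled each other in input reads more than members at large did, and still differed widely. On log2(RPM + 1), the SD over all 323 members was 1.5 and the pooled SD within groups 1.06. For groups of 2 these were 1.34 and 0.973, and over unlinked guides the SD was 1.18. Of 302 linked pairs in tiled groups 139 differed at least 2-fold on this scale, or 46.0% (40.3 to 51.8%), where 64.1% of all pairs of members and 50.6% of all pairs of unlinked guides did. Among the 79 groups in which every guide had input reads, the highest guide exceeded the lowest by a median of 4.51-fold, from 1.10-fold to 168-fold, and by at least 10-fold in 24 groups. Differences by distance between cut positions were taken over all pairs of guides within a group, linked or not. The median difference was 0.94 (log2) for 51 pairs of guides on the same layout positions. On the same strand it was 0.97 for 73 pairs 1 to 2 bases apart and 0.95 for 162 pairs 3 to 12 bases apart. On opposite strands it was 0.83 for 77 pairs 3 to 14 bases apart and 0.78 for 97 pairs 15 to 24 bases apart. Guides on the same layout positions differ in sequence and lie in mixed groups, so they share a place in the layout and not a site. The spread of input reads also pools mixed groups with those that read as 1 sequence. The 2 largest groups show the range: the Defa41 group had 1254, 1536, 516, 938, 1900, 179, 67, 122, 324, 433 and 716 input reads in the order shown, and the 7-guide group had 84, 201, 722, 541, 40, 1019 and 371. In the Defa41 group guides 5, 6, 7 and 8 lie on the same 20 positions and ranged from 67 to 1900.

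In the sorted survivors tiled guides were absent about as often as unlinked guides with like input reads. Survivor reads of the members had a median of 48 (quartiles 0 and 194), against 84.5 in groups of 2 and 127 in unlinked guides. No survivor reads were found for 110 of 323 members, or 34.1%, where 13.3% of all guides had none. Guides with fewer than 30 input reads were left out of fold changes, which kept 270 members. Of these 59 were absent from the survivors, or 21.9% (17.1 to 27.3%), against 10.3% of all kept guides. In 20 bins of input reads, the shares of unlinked guides absent from each bin summed to 59.3 absent members, against the 59 observed. For groups of 2 the same sum was 168, against 164 observed. Absent were 40 of 59 members with 30 to under 200 input reads, 16 of 62 with 200 to under 500, 3 of 74 with 500 to under 1000 and 0 of 75 with 1000 or more, an exact upper limit of 4.80%. Unlinked guides in these ranges were absent in 62.2%, 24.1%, 7.05% and 0.885%.

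Change from input to survivors was expressed as a log2 fold change of RPM with a pseudocount of 1 RPM, relative to the median of the 76767 kept guides. It differs from a plain ratio most for guides with few reads. Kept members had a median of -0.04 (95% interval of the median over guides -0.25 to 0.20), guides in groups of 2 -0.02 and unlinked guides 0.00, with SDs over guides of 1.22, 1.29 and 1.25. Within a range of input reads the tiled median was the higher one each time, by amounts inside its interval: -0.29 against -0.37 at 30 to under 200 input reads, -0.21 against -0.40 at 200 to under 500, 0.21 against -0.05 at 500 to under 1000 and 0.43 (-0.02 to 0.76) against 0.19 at 1000 or more. Measured from the median of unlinked guides in the same of 20 input bins, the members' median was 0.18 (-0.0034 to 0.30). At least 4-fold higher in the survivors were 10 members, or 3.70% (1.79 to 6.71%), where 3.04% of all kept guides were, and unlinked guides of the same input bins would give 10.6. At least 4-fold lower were 12 members, or 4.44% (2.32 to 7.63%), where 8.17% of all kept guides were, and the matched unlinked guides would give 19.8. The pseudocount keeps guides with few input reads from reaching 4-fold lower. At 30 to under 200 input reads 0 of 59 members and 0 of 4823 unlinked guides did. A larger part of the kept members lies in that range, so the unmatched shares are not like for like. Without matching on input reads, the order of the shares turned with a pseudocount of 0.1 RPM, at which 73 members (27.0%) and 18.4% of unlinked guides were at least 4-fold lower. Matched unlinked guides would give 77.6 there, so the matched count stayed above the observed one. Under TMM scaling (edgeR), where the median of all guides was -0.23, 23 members (8.52%) and 11.6% of unlinked guides were at least 4-fold lower, and 8 members (2.96%) and 1.78% of unlinked guides higher.

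In fold change, guides of a tiled group differed from each other about as widely as unlinked guides did. The pooled SD within groups was 1.24 over 264 kept guides in 81 groups, as wide as the SD of 1.22 over all kept members. Linked pairs differed at least 2-fold in 137 of 223 cases, or 61.4% (54.7 to 67.9%), where 57.7% of all pairs of kept members and 57.5% of all pairs of unlinked guides did. Differences by cut distance were again taken over all pairs of kept guides within a group, linked or not. Within a strand the median difference was 1.39 for guides on the same layout positions, 1.23 at 1 to 2 bases and 1.43 at 3 to 12 bases. Between strands it was 1.21 at 3 to 14 bases and 1.16 at 15 to 24 bases. These values pool groups that read as 1 sequence (138 kept guides) with mixed groups (132 kept guides), and the spread is not given for each kind. Pairs on the same layout positions lie in mixed groups, so their difference is not one at a single site. The 10 members at least 4-fold higher lay in 10 different groups, and the 12 at least 4-fold lower lay in 11 groups. In 35 groups (112 guides) every guide had at least 300 input reads. Both signs of fold change occurred in 25 of these, all guides were above 0 in 8 and below 0 in 2, and in none were all guides 2-fold up or all 2-fold down. As fold changes are centred on the median of kept guides, both signs would be common among unrelated guides too. How often was not counted here. The range of fold changes within these groups had a median of 1.97 and ran from 0.42 to 4.30. Their median fold changes ran from -1.57 to 1.46.

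The 3 of these groups with the highest median fold change are called loci K, L and M, and each read as 1 sequence.
Locus K guide 1 (+): cagcccaACGAAGGTTTCTG
Locus K guide 2 (-): gcaccaCAGAAACCTTCGTt
Locus K guide 3 (-): ggcaccaCAGAAACCTTCGT
Locus L guide 1 (+): aaTGAATGATGACGCCTCTG
Locus L guide 2 (+): aTGAATGATGACGCCTCTGt
Locus L guide 3 (+): TGAATGATGACGCCTCTGtg
Locus M guide 1 (+): aagccagcccGATATGTTGA
Locus M guide 2 (-): tagccaTCAACATATCgggc
Locus M guide 3 (-): attgtagccaTCAACATATC
Locus K had 1631, 1165 and 1057 input reads and 251, 581 and 429 survivor reads, for log2 fold changes of 0.14, 1.76 and 1.46. Its summed reads, with no pseudocount but centred by the same amount as the fold changes (-0.42), gave a log2 ratio of 1.21, with an exact interval of 1.12 to 1.31 that covers counting error only. Locus L had 526, 2404 and 1716 input reads and 47, 875 and 750 survivor reads, for -0.45, 1.34 and 1.59. Its guides 1 and 2, whose cut positions lie a single base apart, lay on either side of 0. Locus M had 1681, 2379 and 597 input reads and 374, 878 and 211 survivor reads. Its fold changes of 0.65, 1.36 and 1.24 were all above 0.

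The 3 with the lowest median fold change were loci N, P and J. Locus N also had the widest range of fold changes, followed by locus Q. Loci N, P and Q each had different bases at 1 position, so each joins near-identical sequences, while locus J read as 1 sequence.
Locus N guide 1 (-): TATGGCTCCTactatggctg
Locus N guide 2 (-): tgtggcTATGGCTCCTacta
Locus N guide 3 (-): tgtggtTATGGCTCCTacta
Locus N guide 4 (+): AGGAGCCATAaccacagccc
Locus P guide 1 (-): TCTTGACTGGTTCTcaacag
Locus P guide 2 (+): gtttAGAACCAGTCAAGAct
Locus P guide 3 (+): tttAGAACCAGTCAAGActg
Locus P guide 4 (+): AGAACCAGTCAAGActggag
Locus Q guide 1 (+): aaGCTTCCATCAAAGGATCA
Locus Q guide 2 (+): GCTTCCATCAAAGGATCAga
Locus Q guide 3 (+): GCTTCCATCAAAGGATCAgg
Locus N had 1785, 466, 1392 and 1216 input reads and 838, 1, 91 and 14 survivor reads, for 1.69, -2.17, -0.96 and -2.60. Its median was -1.57, while its summed reads gave a centred log2 ratio of 0.46, with 838 of the 944 survivor reads from guide 1. Locus P had 1854, 304, 466 and 1255 input reads and 207, 61, 8 and 6 survivor reads, for -0.29, 0.49, -1.68 and -3.09, and a centred log2 ratio of summed reads of -0.96 (-1.14 to -0.78), the lowest of the 35. Locus J, shown above for its input reads, had 431, 75 and 42 survivor reads, for 0.77, -2.10 and -0.86. In locus Q guides 2 and 3 lie on the same 20 positions and differ in their last base. They had 787 and 1800 input reads and 0 and 307 survivor reads, for -2.92 and 0.28, and guide 1 had 518 and 146, for 0.93.

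The 2 groups with the narrowest range each read as 1 sequence.
Locus R guide 1 (+): acagcgGGCTCACAAACACT
Locus R guide 2 (+): cagcgGGCTCACAAACACTc
Locus R guide 3 (+): GGCTCACAAACACTcgggag
Locus S guide 1 (+): caGGCTGCAGCCACAGCTCT
Locus S guide 2 (+): aGGCTGCAGCCACAGCTCTg
Locus S guide 3 (+): GGCTGCAGCCACAGCTCTgg
Locus R had 876, 1474 and 852 input reads and 87, 207 and 89 survivor reads, for -0.39, 0.02 and -0.33. Locus S had 971, 1504 and 528 input reads and 240, 328 and 170 survivor reads, for 0.78, 0.62 and 1.10. In the Defa41 group survivor reads were 710, 649, 48, 276, 798, 0, 136, 0, 59, 33 and 111 in the order shown, and fold changes ran from -1.20 to 2.82. The highest belonged to guide 7, with 67 input reads, while guides 6 and 8 at the same position were absent from the survivors. The 7-guide group had 0, 0, 462, 46, 0, 39 and 60 survivor reads, and its fold changes ran from -1.50 to 2.07. Of the matched loci, the Y chromosome group had 120, 53 and 0 survivor reads, for 1.60, 0.42 and -1.73, and the Krtap6-1 group had 0, 227 and 14, for -1.59, 1.46 and -1.04. Fold changes of both signs occurred in each of these 4 groups, which unrelated guides would often show too.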

How the data were processed

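Guide abundance was read from genomic DNA of uninduced input cells and of induced, sorted survivors, with 1 library each. The deposited values are raw read counts, whole numbers for each 20-base guide without scaling, as the series design text describes them. Barcodes were PCR amplified and read by Illumina sequencing, per the labels' protocols. The counting tool and its mismatch setting, and what was combined in each library, were not given in the sources used here.

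Counts were joined by guide and scaled to 1000000 reads per library (RPM). Links, layouts and following bases were computed from sequence alone, and tested on simulated data. Fold changes used at least 30 input reads, a pseudocount of 1 RPM and centring on the median of all kept guides (-0.42 before centring). Shares carry exact Clopper-Pearson intervals at 95%, and medians carry order-statistic intervals. Both treat guides as independent, and reads from PCR, with no molecular identifiers, are not separate molecules.

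Members, lists and thresholds were chosen with earlier results of these data known. Groups were named by group size, by median input reads, and, where every guide had at least 300 input reads, by median and range of fold change. Alternatives covered overlap, strand, input minimum, pseudocount and scaling. Guides were matched exactly, with NGG after them, to RefSeq promoter windows and gene intervals of GRCm38.p6. Python 3.11.15 with numpy 2.4.6, pandas 2.3.3 and scipy 1.17.1, were used, and scaling factors came from edgeR 4.0.16 and DESeq2 1.42.0 under R 4.3.3.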

Additional observations from a re-analysis of the deposited data

How the results depend on the processing

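No paired analysis was possible because there was 1 library per population. No leave-one-out value exists either. Of 71 alternatives, 39 gave a value inside the interval of the one reported or, where it is a count, one that differed by a factor of at most 1.5. The other 32 follow, and the cause was not tested. The 323 members became 949 at an overlap of 12 bases, 174 at 16, 122 at 17, 61 at 18, 153 on the same strand only and 152 on reverse complements only. GG followed in 62.1% of views in groups of 2. The share of members under 200 input reads was 40.2% at 16 bases, 22.2% at 12 bases, 29.3% without groups of at least 70% mean GC, and 26.1% with each group counted once. Its ratio to the unlinked share was 4.36 at a threshold of 100 reads and 2.22 at 500. Absence from the survivors was 34.1% with no input minimum, 14.3% from 100 and 5.24% from 300 input reads. The members' median fold change was -0.37 with TMM and -0.33 with DESeq2 size factors, which moved the median of all guides to -0.23 and -0.18. Members at least 4-fold higher numbered 33 at 12 bases (3.85%, unlinked guides 3.01%), 3 from 300 input reads (1.57%, unlinked 2.18%) and 2 with a pseudocount of 5 RPM (0.741%, unlinked 0.564%). Those at least 4-fold lower numbered 5 at 16 bases (3.60%), 52 at 12 (6.07%) and 7 on the same strand only (5.26%), against unlinked shares of 8.16 to 8.18%. They numbered 73 with a pseudocount of 0.1 (27.0%, unlinked 18.4%), 0 with 5 (unlinked 0.202%), 23 with TMM (8.52%, unlinked 11.6%) and 21 with DESeq2 (7.78%, unlinked 11.1%). The unlinked shares given here are not matched on input reads. Linked pairs at least 2-fold apart were 58.6% with a pseudocount of 0.1 and 23.2% with 5 in input reads, and 72.6% and 37.2% in fold change, as a larger pseudocount pulls low values together. The median difference from unlinked guides of the same input bin was 0.18, with an interval that reaches below 0 (-0.0034 to 0.30). Its 6 alternatives ran from 0.063 to 0.27, drawn from the same libraries and without intervals. Depth limits the low end: a count of 0 in the survivors says little about a guide with few input reads.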

Other observations

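Exact matches of guides outside the tiled groups in the same promoter windows gave input reads for guides with several matched positions. Of 591 unlinked guides matched in the windows, 23 matched at 2 or more positions, or 3.89% (95% exact binomial interval 2.48 to 5.78%), against 12 of 39 matched guides in groups of 2, or 30.8% (17 to 47.6%), and 4 of 7 matched tiled guides, or 57.1% (18.4 to 90.1%). The 23 unlinked guides with several positions had a median of 168 input reads, and 13 of them were under 200, or 56.5% (34.5 to 76.8%). The 568 with a single position had a median of 971 reads, and 76 were under 200, or 13.4% (10.7 to 16.5%). Of the tiled guides matched at several positions, the 3 of the H2b group had 0, 0 and 1 input reads, and guide 1 of the Y chromosome group had 232. The interval for the 7 matched tiled guides treats them as independent draws, though the 3 of the H2b group overlap at the same places. The presence of chromosome Y in the cells was not tested. These windows hold a small part of each gene, so a guide with 1 match here may have others elsewhere. Matches were found for 591 of 78080 unlinked guides and 7 of 323 members. Whether the number of matched positions bears on the input reads of tiled guides was not tested. None of the 25 members at 0 input reads had survivor reads, and 2 of the 53 members under 30 input reads had survivor reads.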
